A study of Capra hircus with 4 samples.

Results

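The mitochondrial ribosomal protein genes, which carry the names MRPL (large subunit) and MRPS (small subunit), were described in goat longissimus dorsi muscle, the long muscle of the back. Members were all gene names that begin with MRPL or MRPS and a number in the table in which the authors paired assembled sequences (unigenes) with goat genes, so no measured value chose them. There were 68 member genes on 75 unigenes, of 11208 goat gene names on 21220 paired unigenes, and 44 members were named for the large and 24 for the small subunit. All 68 symbols were found in the RefSeq annotation of the goat assembly ARS1.2, which lists 77 symbols of this kind. The 4 RNA-seq libraries came from Cashmere goats aged 2 months. The control group had 1 library and no ractopamine in its labels, and the treated group had 3 libraries (treated 1, 2 and 3) from goats that received the feed additive ractopamine, an agonist of beta-adrenergic receptors, by mouth at 1 mg/kg of body weight each day, in a study of 28 dosing days and 21 withdrawal days. The labels call the 3 treated libraries replicates and give no day for any of them. The study's methods place the sequenced samples on 3 days, of which 1 lay within dosing and 2 after withdrawal. The treated libraries are therefore not taken as replicates of one exposure, some goats had not completed dosing or withdrawal, and no library was assigned to a day here.

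Mitochondria keep ribosomes of their own, which translate the few messenger RNAs encoded by mitochondrial DNA, all of them for subunits of the respiratory chain and ATP synthase. The RNA parts of this ribosome come from mitochondrial DNA, whereas its proteins are encoded in the nucleus, made in the cytosol and imported. Many of these proteins have counterparts in bacterial ribosomes, and the others are found only in mitochondria. Skeletal muscle is rich in mitochondria, and the question put to the data was how these nuclear genes stood when ractopamine had been given.

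The libraries differed in content far more than in size. They held 6675218 to 8533046 expected counts, which are the authors' estimates of the fragments on each unigene. Unigenes whose best nucleotide match was mitochondrial DNA took 23.8% of the goat-paired counts in the control library, 42.8% in treated 1, 97.9% in treated 2 and 55.2% in treated 3. The remaining nuclear counts were 6086051, 3990461, 132640 and 2697328, so that 3 counts, the lowest level taken as measurable, correspond to 0.493, 0.752, 22.6 and 1.11 counts per 1000000 nuclear counts. Treated library 2 therefore measures single nuclear genes poorly. Unigenes with a bacterial best match took 1.27%, 3.72%, 7.50% and 2.502% of all counts. In treated library 2 the summed shares of marker genes of other cells were also raised relative to the control library, 58.9 times for adipocytes (ADIPOQ and PLIN1), 19.7 times for fibroblasts (3 of 5 listed genes found), 24.4 times for immune cells (by CD74 alone, as CD68 and PTPRC were at 0 counts there and 2 of 5 had no unigene) and 2.51 times for endothelial cells (4 of 4), against 1.25 times for skeletal muscle (6 of 10, with CKM the highest in every library). In treated library 1 the shares relative to the control were 7.68 for adipocytes, 7.94 for immune cells, 1.48 for fibroblasts, 0.594 for endothelial cells and 1.08 for skeletal muscle. The first rested on ADIPOQ (403 counts, beside 5 for PLIN1) and the second on CD74 (538 counts). The other non-muscle markers lay on both sides of 1 there. COL1A1 had 0.731, DCN 1.07 and LUM 2.08, and PECAM1 had 1.23, CDH5 0.854, KDR 0.632 and VWF 0.303. In treated library 3 the summed shares were 1.89, 2.36, 2.38, 1.30 and 1.67 in the same order, with COL1A1 at 0.852 and LUM at 3.36. The muscle markers did not share a direction, and their median log2 ratio was -0.23, -0.41 and 0.26 in treated 1, 2 and 3. In treated 2, CKM had a ratio of 1.34 and TNNT3 2.02, but DES had 0.983, MYH2 0.565, MB 0.343 and ACTA1 0 counts. The 3 red blood cell markers had no paired unigene. The part of these markers in the results below was not tested, and in bulk muscle fewer cells of a type and less RNA per cell cannot be told apart.

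Not all unigenes paired with a member were goat RNA. Of the 75 member unigenes, 7 had a bacterial genome as best nucleotide match, and their protein identity to the goat gene was 30 to 51% (median 40%). They were paired with MRPL2, MRPL11, MRPL13, MRPL16, MRPL27, MRPS12 and MRPS16, all of which encode proteins with bacterial counterparts. The other 68 unigenes had 79 to 100% identity (median 100%) and gave exactly 1 unigene for each member. The 7 bacterial unigenes held 85 counts in the control library, 212 in treated 1, 424 in treated 2 and 113 in treated 3. This was 0.535% of the member counts in the control, 1.88% in treated 1, 53.7% in treated 2 and 1.38% in treated 3. Relative to all counts on bacterial unigenes the values lay close together, at 0.782, 0.716, 0.771 and 0.677 per 1000. For single members the difference was large in treated library 2, where MRPS16 had 161 counts, of which 159 were on the bacterial unigene. MRPL11, which lies at the base of the flexible stalk of the large subunit, had 93 of 94 counts there on such a unigene, and MRPL2, a core protein of the large subunit, had 133 of 149. Values of single members are therefore given below for the goat unigene alone.

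The start of the deposited coding sequence, first 300 bases from 5′ to 3′ on the coding strand, is shown for 2 members with a high and 2 with a low ratio of treated to control, because the results turn on them. Capitals mark the start codon. The coding sequence assembled for MRPL40 opens without one.
MRPL40: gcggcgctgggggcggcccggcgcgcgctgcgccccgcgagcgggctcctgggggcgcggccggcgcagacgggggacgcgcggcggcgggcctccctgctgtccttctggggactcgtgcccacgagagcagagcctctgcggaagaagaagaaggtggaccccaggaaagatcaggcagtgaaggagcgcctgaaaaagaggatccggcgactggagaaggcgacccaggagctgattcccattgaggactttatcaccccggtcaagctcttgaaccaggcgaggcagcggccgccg
MRPS15: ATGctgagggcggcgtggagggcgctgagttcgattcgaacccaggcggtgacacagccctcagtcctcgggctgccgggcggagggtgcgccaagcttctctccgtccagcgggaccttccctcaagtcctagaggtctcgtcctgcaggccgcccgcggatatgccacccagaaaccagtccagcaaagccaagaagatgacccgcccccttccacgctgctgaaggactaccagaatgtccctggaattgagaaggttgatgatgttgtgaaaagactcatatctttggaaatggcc
MRPL10: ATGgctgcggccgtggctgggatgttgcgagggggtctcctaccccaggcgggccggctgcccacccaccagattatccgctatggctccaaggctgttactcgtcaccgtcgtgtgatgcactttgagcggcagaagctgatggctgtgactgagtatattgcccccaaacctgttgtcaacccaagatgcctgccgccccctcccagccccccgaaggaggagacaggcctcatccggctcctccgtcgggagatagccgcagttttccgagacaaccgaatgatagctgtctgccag
MRPL37: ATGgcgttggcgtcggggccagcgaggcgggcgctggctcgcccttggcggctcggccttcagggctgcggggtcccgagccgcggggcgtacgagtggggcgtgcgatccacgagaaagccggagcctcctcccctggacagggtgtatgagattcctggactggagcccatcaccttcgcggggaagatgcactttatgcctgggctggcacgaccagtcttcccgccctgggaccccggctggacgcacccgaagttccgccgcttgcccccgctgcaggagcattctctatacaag

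Summed over all members and set against all goat-paired counts, the genes for mitochondrial ribosomal proteins took 0.199% of the counts in the control library, 0.162% in treated 1, 0.0125% in treated 2 and 0.136% in treated 3. All treated libraries were below the control. The ratio to the control was 0.814 (95% exact interval 0.795 to 0.834) in treated 1, 0.0628 (0.0584 to 0.0674) in treated 2 and 0.686 (0.667 to 0.704) in treated 3. These intervals, as all others here, cover counting error only. With the bacterial unigenes left out, the share in treated library 2 was 0.00578%. An exact permutation test over the 4 libraries (2-sided) gave p = 0.5, and with 1 control library the smallest value it allows is 0.25.

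Set against nuclear counts alone, the direction of the summed share was the opposite. The median level of members per length, given below, was instead under the control in each treated library. The members' share of nuclear counts was 0.260% (0.256 to 0.264, Wilson interval at 95%) in the control library, 0.278% in treated 1 (0.273 to 0.283), 0.275% in treated 2 (0.248 to 0.305) and 0.300% in treated 3 (0.294 to 0.307). The ratio to the control was 1.07 (1.04 to 1.10) in treated 1 and 1.16 (1.13 to 1.19) in treated 3, and in treated 2 it was 1.06 (0.953 to 1.18), an interval that holds 1. All 3 treated shares were above the control, and the exact permutation test gave p = 0.5, in a design whose smallest p is 0.25. A unigene paired with TFCP2L1 at 86% identity, whose best Swiss-Prot match is a yeast protein named for rDNA transcription, took 0.119% of nuclear counts in the control library and 15.4% in treated 2. Whether it is ribosomal RNA was not tested. Without it every nuclear ratio of treated 2 is 1.18 times as high, and the member ratios were 1.07, 1.25 (1.13 to 1.39) and 1.16, so the interval of treated 2 then lay above 1.

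**Figure D1:**
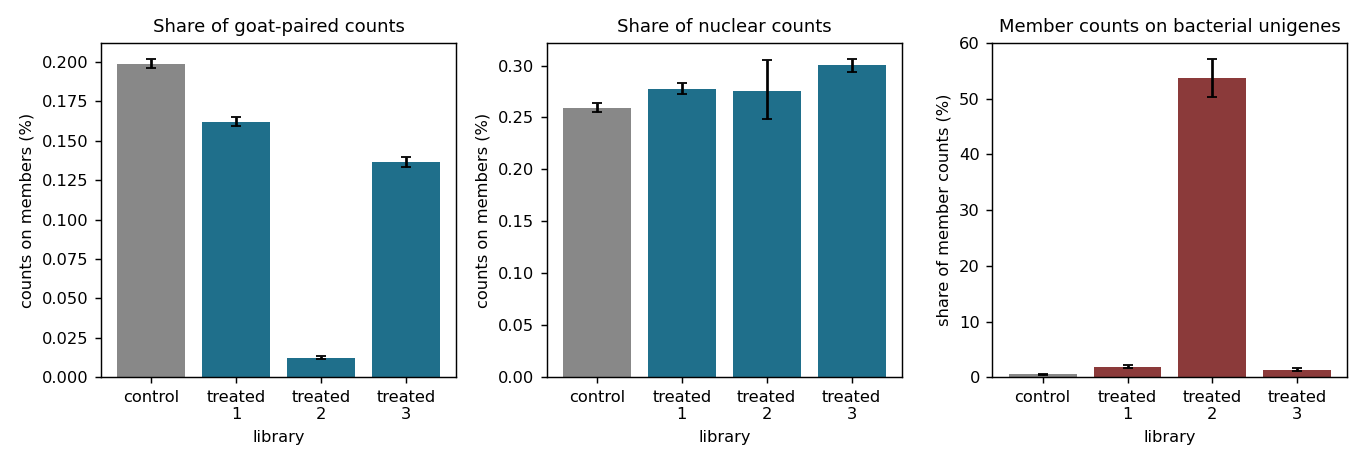
Share of counts on the 68 mitochondrial ribosomal protein genes in each library, in percent, relative to all goat-paired counts (left) and to nuclear counts (middle), and the share of member counts that fell on bacterial unigenes (right). Bars are single libraries with 95% Wilson intervals for counting error. Relative to goat-paired counts the treated libraries lie below the control at 0.199%, relative to nuclear counts all lie between 0.260 and 0.300%, and the bacterial part reaches 53.7% in treated library 2.

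With 0.5 counts added, the median over the single members had the same directions. In treated 2 the nuclear median rests on the added counts, as most members had a ratio below 1 there without them. Relative to goat-paired counts, the median log2 ratio of members to the control was -0.30 in treated 1, -5.10 in treated 2 and -0.62 in treated 3, where the 8633 goat genes with at least 20 counts over the 4 libraries had medians of -0.82, -5.22 and -1.22. Relative to nuclear counts, the member medians were 0.10, 0.04 and 0.13, and those of all genes were -0.41, -0.03 and -0.46. All 68 members passed the minimum of 20 counts. In treated libraries 1 and 3, 50 and 60 of 68 members were above the median of all genes, and in treated library 2 this held for 35 of 68. Members have short unigenes, and against other genes of the same length class the difference of the medians was smaller in treated 1 and 3. It was 0.25 in treated 1 and 0.34 in treated 3, and turned to -0.49 in treated 2, where the added counts weigh most. With 0.5 counts added, 36, 35 and 42 of 68 members had a nuclear ratio above 1 in treated 1, 2 and 3. Of all genes, 35.1%, 48.8% and 30.2% had one. In treated 2 the added counts lifted some members over 1, such as MRPL13 (0.877 without them) and MRPS12 (0.900). With the 5 members at 0 counts in treated 2 set to 3 counts and the others left as above, the nuclear median was 0.07. The goat-paired one was -4.99.

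How many members passed a ratio of 2 or 0.5, with 0.5 counts added, depended on the denominator. Relative to nuclear counts, 4 members were above 2 in treated library 1, where 11.1% of all genes were, and 5 were below 0.5, where 29.4% were. Those above were MRPL22, MRPL40, MRPS18C and MRPS33, and those below were MRPL10, MRPL34, MRPL37, MRPS9 and MRPS18B. In treated library 2, 6 members were above 2 (24.4% of all genes) and 13 below 0.5 (25.2%), and without the TFCP2L1 unigene these counts were 10 (29.8%) and 9 (20.7%). In treated library 3, 2 members were above 2 (6.86% of all genes), MRPL23 and MRPL40, and 0 were below 0.5 (27.7%). In each of these cases the share of members past the limit was below the share of all genes, a difference that was not tested. Relative to goat-paired counts, 10, 65 and 16 members were below 0.5 in treated 1, 2 and 3, where 43.3%, 98.6% and 59.9% of all genes were, and 1, 0 and 0 were above 2, where 6.37%, 0.127% and 1.97% were.

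The counting error left 28 members of treated 1, 39 of treated 3 and 60 of treated 2 with an interval that held 1. In treated 1 the exact interval of the nuclear ratio lay above 1 for 21 members (20.3% of all genes) and below 1 for 19 (45.2%). In treated 3 it lay above 1 for 20 members (13.9%) and below 1 for 9 (43.6%). In treated 2 it lay above 1 for 5 (10.6%) and below 1 for 3 (12.8%), and without the TFCP2L1 unigene for 6 (12.3%) and 1 (9.73%). The member counts in treated 2 had a median of 3 and a maximum of 36, and 38 members had 3 counts or fewer. In both treated 1 and treated 3, 13 members had an interval above 1 (8.64% of all genes) and 5 had one below 1 (32.3%). These 2 comparisons share the control library.

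**Figure D2:**
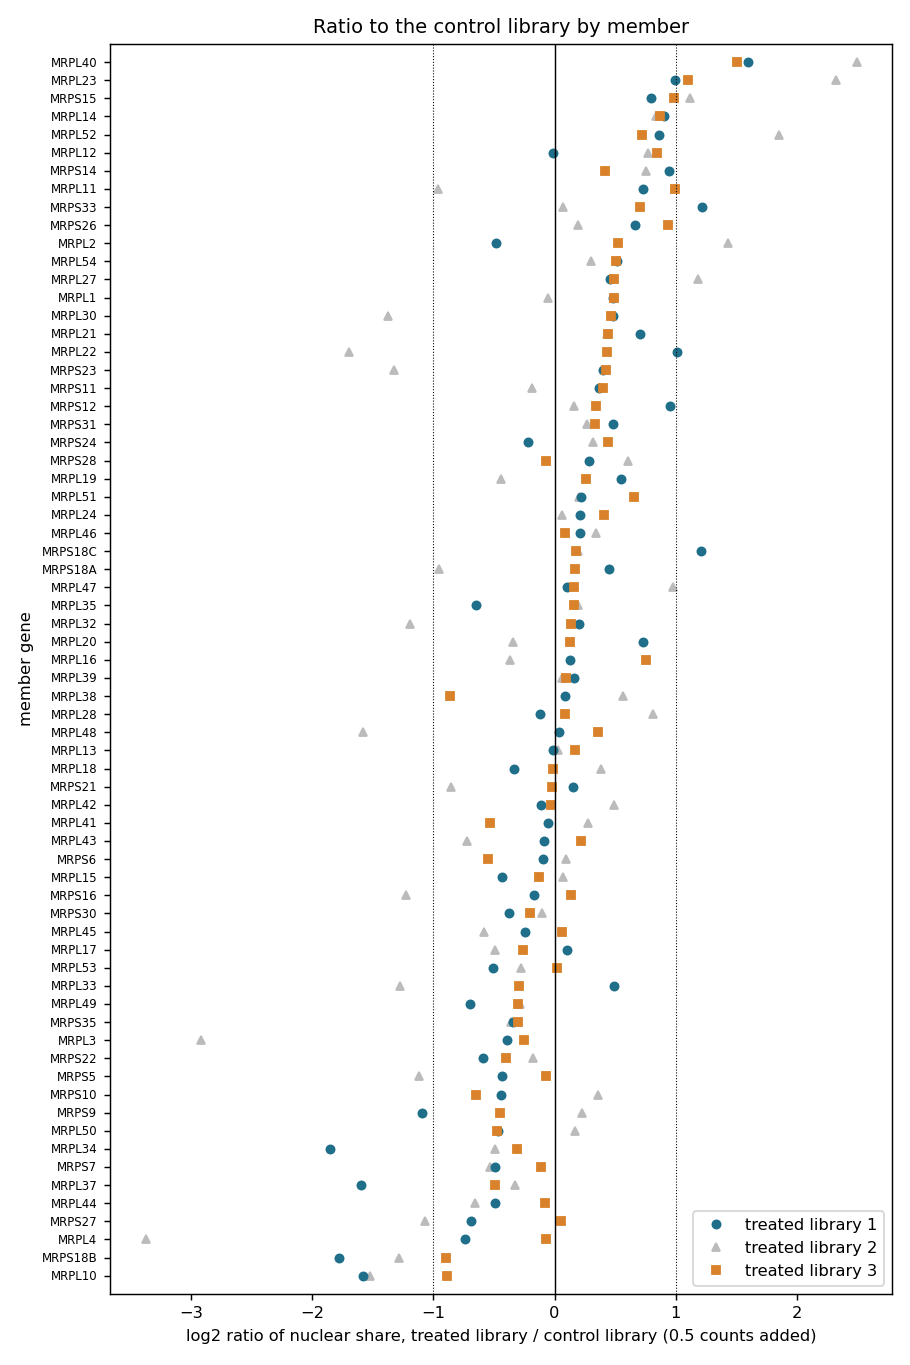
Log2 ratio of the nuclear share in each treated library to the control library for the 68 members, with 0.5 counts added, ordered by the median of the 3 libraries. Points are single libraries, and dotted lines mark ratios of 2 and 0.5. MRPL40 and MRPL23 lie highest, MRPL10 and MRPS18B lowest, and treated library 2, where 38 members have 3 counts or fewer, scatters most.

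The highest ratio among members was that of MRPL40, a protein found only in the large subunit of mitochondrial ribosomes. Its goat unigene had 231 counts in the control library, 459 in treated 1, 28 in treated 2 and 292 in treated 3. Relative to nuclear counts this was 3.03 times the control (2.58 to 3.57) in treated 1, 5.56 times (3.62 to 8.25) in treated 2 and 2.85 times (2.39 to 3.40) in treated 3. All 3 intervals lay above 1, as they did for 3 other members, MRPL23, MRPL52 and MRPS15, where 4.37% of all genes did. MRPL23, which lies near the exit of the tunnel through which the new peptide leaves, had 333, 436, 36 and 317 counts and ratios of 2.00, 4.96 and 2.15. MRPS15, a small-subunit protein with a bacterial counterpart, had 621, 709, 29 and 546 counts and ratios of 1.74, 2.14 and 1.98. MRPL52, found only in mitochondria, had 133, 159, 10 and 97 counts and ratios of 1.82, 3.45 and 1.65.

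MRPL14, a core protein on the side of the large subunit that meets the small one, had 397, 488, 15 and 322 counts. Its ratios of 1.87, 1.73 and 1.83 were close to each other, although the interval in treated 2 (0.961 to 2.89) held 1 as long as the TFCP2L1 unigene was counted. MRPL12, which forms the stalk that recruits translation factors, had 281, 182, 10 and 224 counts. Its ratio was 0.988 (0.815 to 1.19) in treated 1 and 1.80 (1.502 to 2.15) in treated 3, so that these libraries did not share a direction. MRPL11, at the base of that stalk, had 134, 146, 1 and 118 counts, and ratios of 1.66 (1.31 to 2.12) in treated 1 and 1.99 (1.54 to 2.56) in treated 3. MRPL10, which anchors the stalk, lay at the other end of the order, so the stalk genes did not share a direction.

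MRPL10 had 198 counts in the control library, 43 in treated 1, 1 in treated 2 and 47 in treated 3. Its ratio was 0.331 (0.232 to 0.463) in treated 1 and 0.536 (0.381 to 0.739) in treated 3, both below 1. In treated 2 the ratio was 0.232 (0.00584 to 1.31). MRPS18B had 279, 53, 2 and 66 counts, and its ratios were 0.290 (0.212 to 0.390) in treated 1 and 0.534 (0.402 to 0.700) in treated 3. MRPL37, found only in mitochondria, had the highest count of all members in the control library, 777, and then 168, 13 and 245. Its ratios were 0.330 (0.277 to 0.390), 0.768 (0.407 to 1.32) and 0.711 (0.614 to 0.822). MRPL49 and MRPS9 were the other 2 members with intervals below 1 in treated 1 and 3, and 0 members had intervals below 1 in all 3 libraries, where 9.48% of all genes did.

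The remaining low members by this order were MRPL4, MRPS27 and MRPL44. MRPL4, a core protein of the large subunit, had 238, 93, 0 and 100 counts. Its ratio was 0.596 (0.464 to 0.760) in treated 1 and 0.948 (0.743 to 1.20) in treated 3. With 0 counts in treated 2, its exact interval ended at 0.717. At the floor of 3 counts it would be 1.73-fold lower there. MRPL3, also a core protein, had 173, 86, 0 and 64 counts. In treated 2 it would be 1.26-fold lower at the floor of 3 counts, and its exact interval ended at 0.989. Without the TFCP2L1 unigene that interval held 1. For MRPL22, MRPL30 and MRPL32, the other members at 0 in treated 2, 3 counts would have been a higher share than in the control, so the depth could not show a difference. MRPS27, a small-subunit protein, had 337, 137, 3 and 155 counts and ratios of 0.620 (0.505 to 0.758) in treated 1 and 1.04 (0.852 to 1.26) in treated 3. MRPL44, which resembles ribonuclease III, had 108, 50, 1 and 45 counts and ratios of 0.706 (0.495 to 0.996) and 0.940 (0.649 to 1.34) in treated 1 and 3.

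Other proteins of known place in the ribosome showed no shared direction. MRPL45, which helps to hold the ribosome at the inner membrane, had 309, 171, 4 and 143 counts, and all its intervals held 1 (ratios 0.844, 0.594 and 1.04). MRPS12, which takes part in decoding, had 102, 130, 2 and 57 counts, with ratios of 1.94 (1.49 to 2.54) in treated 1 and 1.26 (0.895 to 1.76) in treated 3. MRPS5, a core protein of the small subunit, had 649, 314, 6 and 274 counts, with ratios of 0.738 (0.643 to 0.846) in treated 1, 0.424 (0.155 to 0.928) in treated 2 and 0.953 (0.824 to 1.10) in treated 3, the second of which held 1 without the TFCP2L1 unigene. For MRPL2, the goat unigene had 280, 131, 16 and 178 counts, and its ratio was 0.714 (0.575 to 0.881) in treated 1, 2.62 (1.48 to 4.33) in treated 2 and 1.43 (1.18 to 1.74) in treated 3.

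MRPS18A, MRPS18B and MRPS18C are paralogues that go back to 1 bacterial small-subunit protein, and MRPS18A is placed in the large subunit of the mammalian mitochondrial ribosome. MRPS18A had 310, 277, 3 and 154 counts, and its ratio was 1.36 (1.15 to 1.61) in treated 1 and 1.12 (0.918 to 1.36) in treated 3. MRPS18C had 100, 152, 2 and 50 counts, with 2.32 (1.79 to 3.01) in treated 1 and 1.13 (0.787 to 1.5996) in treated 3. MRPS18B was below 1 in both, as given above. The ratios of MRPS18A and MRPS18B thus lay on opposite sides of 1 in treated 1 with intervals that did not meet. MRPS30, which in spite of its name also sits in the large subunit, had 123, 62, 2 and 47 counts, and its 3 intervals held 1 (ratios 0.769, 0.746 and 0.862). MRPS36 had no paired unigene.

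The comparison of large and small subunits gave similar values in 3 of the libraries. Counts on large-subunit genes per count on small-subunit genes were 1.55 in the control library, 1.56 in treated 1, 1.83 in treated 2 and 1.63 in treated 3 over all unigenes. With the bacterial unigenes left out they were 1.55 (1.497 to 1.596), 1.56 (1.501 to 1.62), 2.23 (1.78 to 2.81) and 1.62 (1.55 to 1.70). Treated library 2 stood above the others on 252 and 113 counts, and MRPL23 and MRPL40 alone gave 36 and 28 of the former. The exact permutation test gave p = 0.5 for both versions. Relative to nuclear counts, the large-subunit sum was 1.07 (1.04 to 1.11), 1.21 (1.06 to 1.37) and 1.18 (1.14 to 1.22) times the control in treated 1, 2 and 3, and the small-subunit sum was 1.06 (1.02 to 1.11), 0.836 (0.688 to 1.01) and 1.12 (1.07 to 1.17) times the control. The median log2 ratio was 0.10, 0.04 and 0.15 for the 44 large-subunit genes and 0.03, -0.02 and 0.09 for the 24 small-subunit genes, with SDs over genes of 0.70, 1.16 and 0.50 and of 0.74, 0.70 and 0.48.

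**Figure D3:**
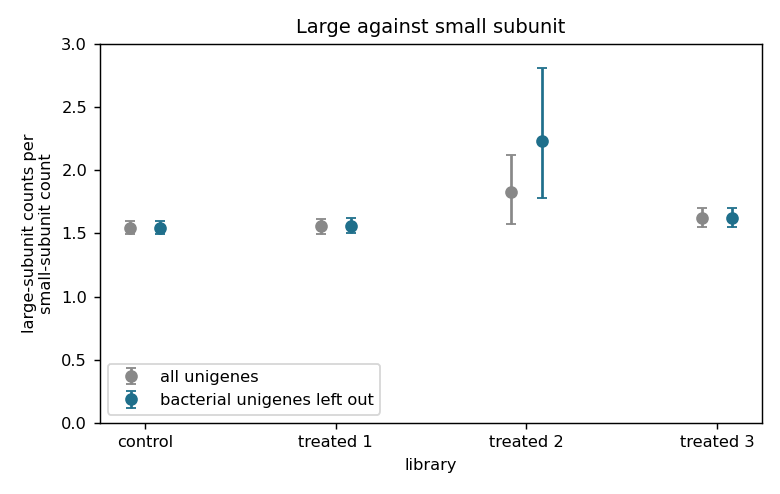
Counts on large-subunit genes per count on small-subunit genes in each library, over all unigenes and with bacterial unigenes left out. Points are single libraries with exact 95% intervals for counting error. The control, treated 1 and treated 3 lie between 1.55 and 1.63, and treated 2 lies higher at 1.83 and 2.23 with wide intervals.

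Grouped by origin, 43 members encode proteins with a bacterial homologue and 25 encode proteins particular to mitochondria. Median log2 ratios were 0.12, 0.03 and 0.17 for the first group in treated 1, 2 and 3, and -0.06, 0.06 and 0.07 for the second. The summed share was 1.11 (1.08 to 1.14) and 1.20 (1.16 to 1.24) times the control in treated 1 and 3 for the first, and 1.01 (0.966 to 1.05) and 1.08 (1.03 to 1.13) for the second. In treated 2 it was 1.08 (0.946 to 1.23) and 1.02 (0.855 to 1.22), and both intervals held 1. The difference between the groups was not tested over samples. MRPL40, MRPL52 and MRPL37 all belong to the second group and lay at both ends of the order.

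Levels between genes were compared per length, as nuclear TPM, which is the deposited TPM rescaled so that nuclear goat-paired unigenes sum to 1000000 in each library. The median member stood at 45.9 in the control, 38.2 in treated 1, 25.4 in treated 2 and 39.1 in treated 3, where the median goat gene stood at 16.3, 9.46, 9.38 and 9.01. By this measure the median member was below the control in each treated library, whereas the summed share of nuclear counts was above it. In the control library the members ranged from 10.8 to 174 nuclear TPM, and the upper quartile was 2.49 times the lower one. Proteins of the same particle were thus encoded by messenger RNAs of unequal level. By mean level over the 4 libraries the order opened with MRPL23 (132, 229, 571 and 248 nuclear TPM in the control and treated 1, 2 and 3), MRPS15 (174, 264, 324 and 303) and MRPL40 (86.9, 229, 421 and 217). The ranges of these 3 over the libraries overlapped, so their order is not settled. MRPS24, a core protein of the small subunit at the entry of the messenger RNA, followed at 135, 106, 101 and 164. MRPL21 stood at 99.1, 141, 109 and 118, and MRPS33 at 81.1, 164, 67.4 and 116, again with overlapping ranges. At the lower end were MRPS30 at 18.1, 12.2, 11.8 and 13.8, MRPL44 at 15.3, 9.42, 5.56 and 12.6, and MRPL32 at 10.8, 10.8, 0 and 10.3. These last 3 were named after the values had been seen.

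**Figure D4:**
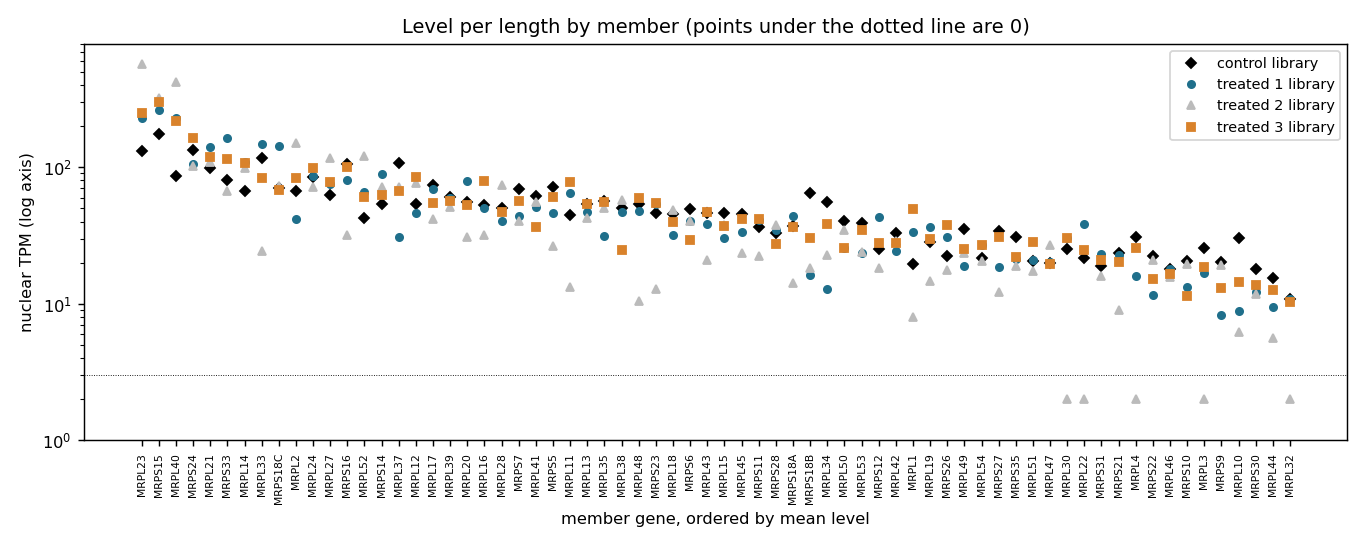
Level of each member per length, in nuclear TPM on a log axis, for the 4 libraries, ordered by the mean over libraries. Points are single libraries, and points under the dotted line are 0. MRPL23, MRPS15 and MRPL40 lie highest, and the 5 members at 0 are all in treated library 2.

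The ratios went with the length of the unigene, in members and in goat genes at large. Members had short unigenes, with a median of 1116 bases (504 to 3522), where the median over the 8633 genes tested was 1816. Among other genes, the median log2 nuclear ratio fell from 0.23 for unigenes up to 700 bases to -0.79 for those over 5000 in treated 1, from 0.96 to -1.16 in treated 2 and from 0.27 to -0.99 in treated 3. Among members, Spearman's rho of length and ratio was -0.43, -0.29 and -0.36 in treated 1, 2 and 3, as a description across genes that share a library. MRPL40 (730 bases) and MRPL23 (703 bases) are short, and MRPL10 (1497 bases) and MRPL37 (1643 bases) longer. Other members went the other way. MRPL34 (547 bases) had a ratio of 0.270 in treated 1, and MRPS18B (1063 bases) was among the lowest by median ratio. MRPL14 (1461 bases) and MRPL12 (1244 bases) were among the highest. Compared with other genes of the same length class, the median member was 0.25 log2 units higher in treated 1 (44 of 68 above the class median) and 0.34 higher in treated 3 (53 of 68). In treated 2 the median member was at -0.49 relative to its class, with 16 of 68 above it. The 0.5 counts added raise the ratios of genes with few counts in that library. Few counts and length therefore cannot be told apart in the treated 2 values, those of the length classes included. The part of unigene length in the member ratios was not tested further.

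**Figure D5:**
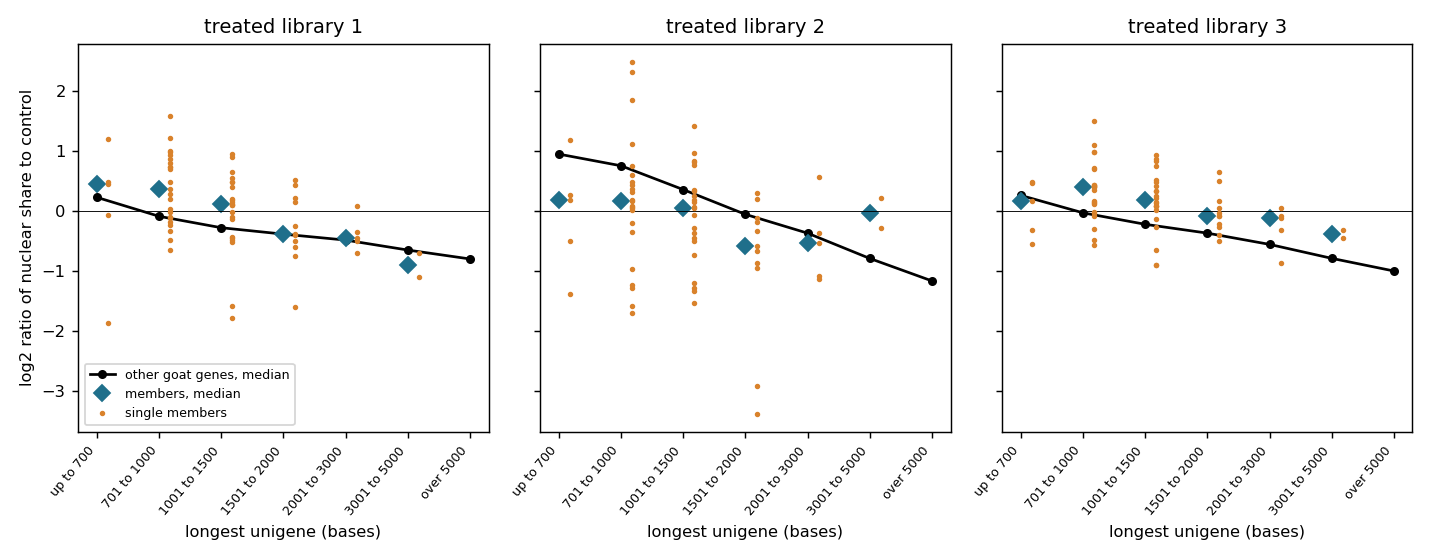
Log2 ratio of nuclear share to the control by length of the longest unigene of a gene, for treated libraries 1, 2 and 3. Black points are medians of other goat genes, diamonds are medians of members and small points are single members. The black line falls with length in each library, and the member medians lie above it in most classes of treated 1 and 3 and below it in treated 2 in all classes but the longest that holds members.

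No member was called different between the treated and the control group when the 3 treated libraries were fitted together. The quasi-likelihood test of edgeR, in which the lone control library is assumed to vary as the treated ones do and the spread comes from treated libraries of different days, called 12 of 8494 goat genes higher (0.141%) and 26 lower (0.306%) at a Benjamini-Hochberg adjusted p under 0.05, and 0 of the 68 members in either direction. At an unadjusted p under 0.05, edgeR gave 4 members as higher and 0 as lower, where 11.2% of all genes passed in either direction. DESeq2 gave 5 members, where 3.73% of all genes passed, and 0 at the adjusted threshold. Its share is of 11208 genes with no filter on low counts, so it cannot be set beside the edgeR share. The DESeq2 sums also included the bacterial unigenes. The 4 members from edgeR were MRPL11, MRPS16, MRPL2 and MRPL40, with log2 fold changes of 3.49, 3.24, 3.12 and 2.15, and the smallest edgeR adjusted p was 0.163 (MRPL11). The first 3 are members with bacterial unigenes. On goat unigenes alone, where edgeR called 0.165% of 8491 genes higher, 0.318% lower and again 0 members, their values were 0.97 ± 0.81 (SE), 0.13 ± 0.76 and 0.82 ± 0.80, while MRPL40 stood at 2.16 ± 0.90 (edgeR adjusted p = 0.314). MRPL23 then stood at 1.80 ± 0.90 with an unadjusted p of 0.0494 (adjusted p = 0.443). When each unigene was tested on its own, edgeR called 4 of 73 member unigenes higher, where 0.866% of all unigenes were. All 4 were bacterial, paired with MRPL2, MRPL11, MRPL16 and MRPS16.

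Mitoribosomal proteins that carry other names were found for 5 of 8 listed genes. Their summed nuclear share was 1.27 (1.15 to 1.41) times the control in treated 1, 0.804 (0.448 to 1.33) in treated 2 and 1.20 (1.07 to 1.35) in treated 3. Of the small-subunit proteins among them, CHCHD1 had ratios of 1.43 (1.14 to 1.80) and 1.62 (1.26 to 2.06) in treated 1 and 3, and AURKAIP1 had 1.38 (1.09 to 1.74) and 1.67 (1.30 to 2.14). DAP3, which binds GTP, had 1.14 (0.818 to 1.59) and 0.820 (0.530 to 1.24), and PTCD3, a pentatricopeptide repeat protein, had 0.978 (0.777 to 1.23) and 0.513 (0.362 to 0.712). GADD45GIP1 had no paired unigene.

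The factors that work with the ribosome had summed shares below the control, as the median goat gene did in treated 1 and 3. For 12 of 15 listed mitochondrial translation factors found, the summed nuclear share was 0.610 (0.563 to 0.661) times the control in treated 1, 0.467 (0.292 to 0.709) in treated 2 and 0.690 (0.631 to 0.753) in treated 3. The median log2 ratio of the 12 was -0.54, -0.88 and -0.51, where all genes had -0.41, -0.03 and -0.46. A ratio below 0.5 was seen for 2, 5 and 3 of the 12 genes, where 29.4%, 25.2% and 27.7% of all genes had one, and a ratio above 2 for 1, 2 and 0. TUFM, the elongation factor that brings aminoacyl-tRNA to the ribosome, had 902, 332, 11 and 279 counts and ratios of 0.561 (0.493 to 0.637), 0.560 (0.278 to 1.01) and 0.698 (0.608 to 0.799). TSFM, its exchange factor, had 145, 24, 0 and 28 counts, with 0.252 (0.157 to 0.391) in treated 1 and 0.436 (0.280 to 0.656) in treated 3. GFM1, which drives translocation, had ratios of 0.390 (0.299 to 0.504) and 0.471 (0.352 to 0.621) in the same libraries. The initiation factors MTIF2 (25, 13, 0 and 16 counts) and MTIF3 (59, 42, 1 and 15) and the recycling factor MRRF (46, 26, 0 and 14) had few counts, and their intervals held 1 in all 3 treated libraries.

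The synthetases that load mitochondrial tRNAs were found for 19 of 21 listed genes, 18 of them with enough counts. Their summed share was 0.586 (0.539 to 0.637), 0.315 (0.172 to 0.529) and 0.667 (0.608 to 0.730) times the control, the median log2 ratio was -1.04, -0.91 and -0.79, and 9, 8 and 8 of the 18 were below 0.5, with 0 above 2 in each library. Genes of ribosome assembly and mitochondrial RNA (21 of 32 found, 19 with enough counts) had 0.779 (0.733 to 0.828), 0.666 (0.485 to 0.894) and 0.730 (0.679 to 0.784), medians of -0.84, -0.51 and -0.35, and 7, 6 and 4 of 19 below 0.5 with 1 above 2 in each. The shares of all genes below 0.5 given for the factors apply here as well. LRPPRC, which stabilises mitochondrial messenger RNAs, had 636, 98, 1 and 88 counts, with ratios of 0.235 (0.188 to 0.291), 0.0721 (0.00182 to 0.403) and 0.312 (0.247 to 0.391). SLIRP, its binding partner, named here after its values were seen, had 171, 468, 17 and 167 counts, with ratios of 4.17 (3.50 to 5.003), 4.56 (2.60 to 7.52) and 2.20 (1.77 to 2.74). POLRMT, the RNA polymerase of mitochondria, had 0.288 (0.190 to 0.425) and 0.454 (0.302 to 0.663) in treated 1 and 3, and TFAM had no paired unigene. In treated 1 and 3 the summed intervals of the factors and synthetases did not meet that of the members, a comparison within single pairs of libraries that has no replicate check.

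Among gene families of like kind, the 63 cytosolic ribosomal protein genes, which build the ribosome of the cytosol, had summed nuclear shares of 1.71 (1.70 to 1.72), 2.51 (2.45 to 2.57) and 1.61 (1.60 to 1.63) times the control, above the member values of 1.07, 1.06 and 1.16. The 54 nuclear genes for respiratory chain subunits, which work beside the products of the mitochondrial ribosome, had 0.833 (0.823 to 0.843), 0.816 (0.774 to 0.860) and 1.23 (1.21 to 1.24). Members therefore lay between the 2 families in treated libraries 1 and 2, and below both in treated 3. All these ratios share the control library.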

How the data were processed

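RNA was sequenced by the authors from 4 muscle libraries, grouped by their titles into control (1) and treated (3). The authors assembled the reads into unigenes, and the assembler, counting tool and their versions are not given in the sources used here; the submitters' processing notes name FastQC 0.10.1. They deposited expected counts for every unigene, all whole numbers, with TPM and FPKM, and a table of goat gene pairs with the percent identity of each protein match. Expected counts were summed per goat gene name. Unigenes were classed as mitochondrial, ribosomal RNA or bacterial by their best nucleotide match, and nuclear counts are goat-paired counts without these classes. Ratios of shares used 0.5 added counts on the log2 scale, a minimum of 20 counts over the 4 libraries, and 95% intervals that cover counting error only, by Wilson's method for a share and by the exact method of Clopper and Pearson for a ratio. Nothing in the labels says that the treated libraries came from separate animals, and p-values then measure only the spread between these libraries.

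Treated and control libraries were compared with edgeR 4.0.16 (quasi-likelihood, TMM, filterByExpr) in R 4.3.3, and DESeq2 1.42.0 was an alternative. On simulated data edgeR recovered 114 of 200 changes of 4-fold and 200 of 200 of 16-fold. The simulated dispersion (squared coefficient of variation) was 0.1, a narrower spread than the fitted coefficient of 0.480 here. Changes were placed only in well-counted genes. A lack of calls therefore does not show a lack of change. Python 3.11.15, scipy 1.17.1, pandas 2.3.3, numpy 2.4.6 and matplotlib 3.10.9 were used. The members and gene lists were chosen with earlier results of these data known. Genes named are the 6 highest by mean level, the 6 highest and 6 lowest by median ratio among those with at least 50 control counts, any called by edgeR, and fixed members and factors of known role. The unigene annotation gave lengths and sequences, the authors' tables of FPKM classes were not used, and FPKM was not needed. Some deposited coding sequences lie on the opposite strand, so only ones read in the sense direction are shown. Alternatives are listed with the limits.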

Additional observations from a re-analysis of the deposited data

How the results depend on the processing

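The shallow nuclear depth of treated library 2 and the single control library limit most values. Of 144 alternative values, 81 were classed as unchanged. Some of these say nothing on stability. All members passed a minimum of 100 counts, so that setting and no minimum could not alter member values. Counts summed from the transcripts repeated the main values. For counts of members the class compared totals alone, not how many were higher or lower. No paired analysis was possible because the control group has 1 library. The direction of the median log2 ratio of members turned with the denominator. With 0.5 counts added, on which the sign in treated 2 rests, it was 0.10, 0.043 and 0.13 in treated 1, 2 and 3 relative to nuclear counts. Without the TFCP2L1 unigene it was 0.10, 0.28 and 0.14. With the median goat gene set to 1 it was 0.52, 0.12 and 0.60. There 18 members (14 higher, 4 lower) passed the fold limits in treated 1, beside 18.3 and 19.0% of all genes. In treated 2, 24 passed (12 and 12), beside 25.4 and 24.5%. In treated 3, 12 passed, all higher, beside 14.6% of all genes higher and 14.9% lower. Relative to goat-paired counts, 16 passed in treated 3, all lower. Relative to nuclear counts, with or without that unigene, 19 and 2 members passed in treated 2 and 3, but the 19 were 6 higher and 13 lower with it and 10 and 9 without it. The direction thus turned where mitochondrial counts were removed from the denominator. With the median goat gene set to 1 the denominator cancels, so those values only give the member median relative to that of all goat genes. With all counts of a library as denominator the medians were -0.40, -5.22 and -0.68 and the shares 0.186, 0.142, 0.0108 and 0.123% in the control and treated 1, 2 and 3. Relative to nuclear counts the shares were 0.260, 0.278, 0.275 and 0.300%, and 0.260, 0.279, 0.325 and 0.301% without the TFCP2L1 unigene.

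With identity of at least 90% the shares were 0.188, 0.152, 0.00563 and 0.128%, and the large per small ratio was 1.46 in the control and 2.21 in treated 2. With 1 unigene per gene, or bacterial unigenes left out, the share was 0.159% in treated 1 and 0.00578% in treated 2, and the large per small ratio in treated 2 was 2.23. TPM in place of counts gave medians of -0.38 in treated 1 and -4.24 in treated 2, shares of 0.286, 0.250, 0.0207 and 0.216%, and large per small ratios of 1.75, 1.68 and 1.81 in the control, treated 1 and treated 3. Large per small ratios in these libraries were 1.74, 1.77 and 1.81 by place in the ribosome and 1.65, 1.72 and 1.84 without the top member of each subunit. Relative to goat-paired counts, fold limits of 1.5 passed 27 members in treated 1 (23 lower) and 40 in treated 3 (39 lower), where 58.7 and 75.5% of all genes were lower, and limits of 3 and 0.6 passed 21 and 27, all lower (53.4 and 70.8%). A pseudocount of 0.1 gave a median of -5.22 in treated 2. edgeR called 4 member unigenes, all bacterial, when unigenes were the features, and 0 members without treated library 1, 2 or 3. Without bacterial unigenes, the members' share of goat-paired counts is their nuclear share times the nuclear part of goat-paired counts. That part was 76.2% in the control and 57.2, 2.10 and 44.8% in treated 1, 2 and 3. The turn in direction of the summed share between these denominators follows from this arithmetic. Why the nuclear part differed, and the cause of the other shifts, was not tested.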

Other observations

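Base composition of the member unigenes had a median of 52.2% G and C (38.5 to 67.9%), with 52.8% for the large and 51.4% for the small subunit. Across the 68 members, Spearman's rho of this share and the log2 nuclear ratio was -0.0022 in treated 1, 0.22 in treated 2 and 0.16 in treated 3, as a description across genes that share a library. In the RefSeq annotation of the assembly ARS1.2, MRPL46 and MRPS11 were the only members next to each other, 24 bases apart, one for each subunit. Their log2 nuclear ratios were 0.21, 0.34 and 0.08 for MRPL46 and 0.37, -0.19 and 0.40 for MRPS11 in treated 1, 2 and 3.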
